A study of Mus musculus with 9 samples.

Results

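The genes described here are 9 B cell and immunoglobulin genes, chosen as the rows whose symbol was Cd79a, Cd79b, Ms4a1, Pax5, Cd22, Ighm, Ighd, Igkc or Jchain. All 9 were found among the 45535 rows of the table that carry a symbol, and all 9 passed the filter on low values, a mean of at least 10 normalized counts. The study sequenced RNA of CD103+ dendritic cells from the lungs of C57/BL6j mice 7 days into bleomycin treatment, the agent used to injure the lung. Lungs were digested with collagenase, CD103+ cells were taken on magnetic beads, and RNA was prepared either at once (before culture, 5 samples) or after 18 h in RPMI medium with 10% FBS and 1% penicillin and streptomycin (after culture, 4 samples). Every sample came from bleomycin-treated lung and no untreated animal was compared. The labels do not say whether samples came from separate mice or how many mice gave a sample, so the p-values measure only the spread between these samples. Before-culture samples are numbered 1 to 5. After-culture samples are numbered 1 to 4, and their library names carry the numbers 1, 3, 4 and 5 in that order.

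B lymphocytes recognise antigen through the B cell receptor, a membrane immunoglobulin of heavy chains (Ighm for IgM, Ighd for IgD) and light chains (mostly kappa, Igkc, in the mouse). The receptor signals through the paired proteins encoded by Cd79a and Cd79b. Pax5 is the transcription factor that holds B cell identity, Ms4a1 encodes the surface protein CD20, and Cd22 encodes a sialic acid-binding receptor that dampens the signal. The J chain, encoded by Jchain, joins secreted IgM and IgA into polymers and is made mainly by antibody-secreting plasma cells. In the lung, B cells and plasma cells lie around airways and vessels and are not the cells that beads against CD103 (Itgae) are meant to take.

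Reads in named rows numbered 14.7 to 28.8 M per library before and 26.0 to 35.3 M after culture. Values are the authors' normalized read counts, in which 1 read was worth 0.758 to 1.79. Each member rested on at least 75 reads in every library, the lowest being Jchain in before-culture sample 5. Itgae itself, the gene for the selected marker, stood at 18138 ± 1537 normalized counts before culture (SD, n = 5) and 1727 ± 335 after (SD, n = 4). A difference was called where limma's adjusted p over all 18202 genes tested was below 0.05. By this rule 12524 genes were called, which is 68.8% of those tested, with 34.2% higher and 34.6% lower after culture.

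Of the 9 members, 2 rose (Cd22, Ms4a1), 3 fell (Ighm, Igkc, Pax5) and 4 did not pass the test (Cd79a, Cd79b, Ighd, Jchain). The 5 called of 9 stand beside the 68.8% of all genes. Their median log2 fold change was 0.07, and that of all tested genes was 0.0065. None of the 9 log2 changes reached 1 in size, as the lowest was -0.60 for Igkc and the highest 0.67 for Cd22. Groups did not overlap for 2 members, Cd22 and Ighm, while 57.3% of all tested genes had groups that did not overlap (28.7% higher and 28.6% lower). In bulk RNA, fewer cells of a type and less RNA per cell cannot be told apart.

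**Figure D1:**
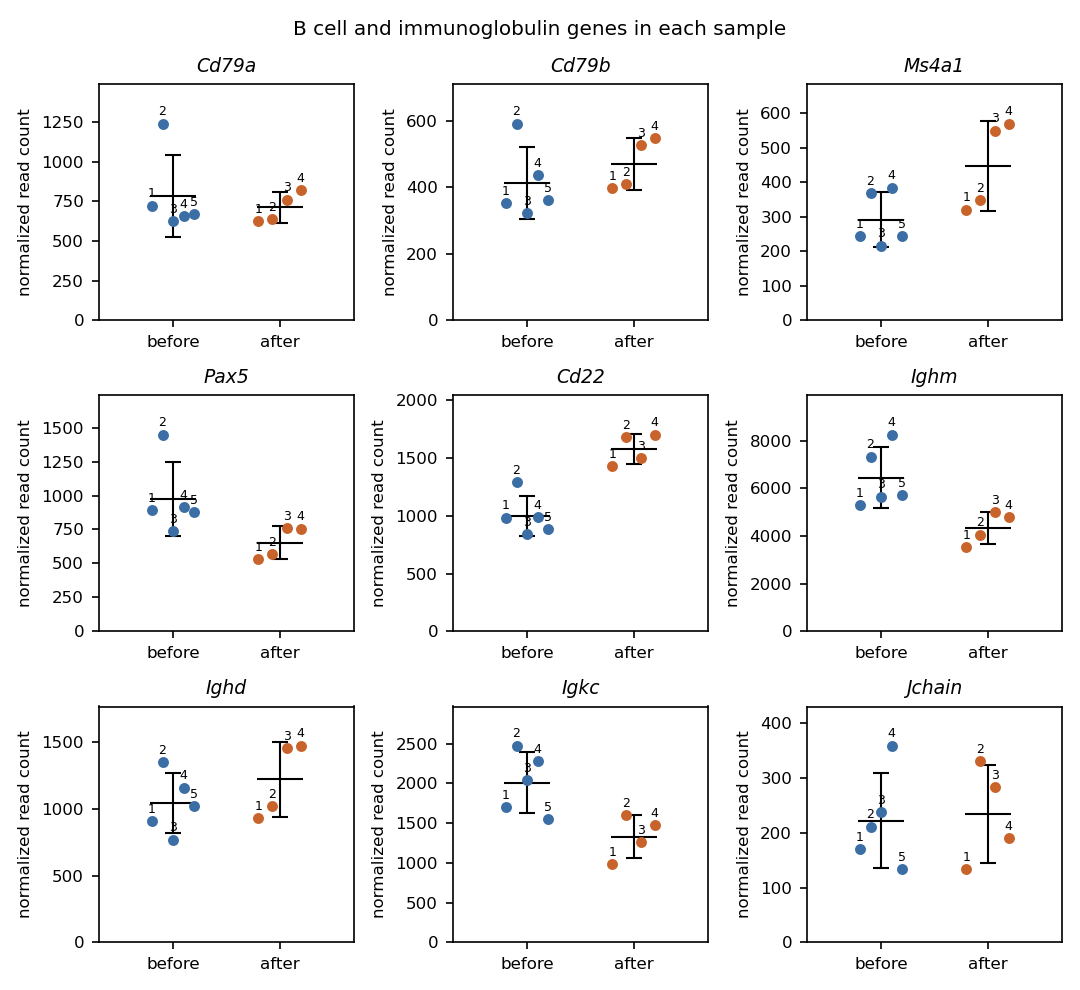
Normalized read counts of the 9 members in each library, on axes that start at 0, with the sample number at each point and the mean and SD of each group in black. Cd22 lies higher and Ighm lower in all 4 after-culture samples, and before-culture sample 2 stands above the rest for Cd79a and Pax5.

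Promoter windows of 3 members are shown because these genes moved in different ways: Cd79a did not pass the test, Pax5 fell and Cd22 rose, while Cd79a and Pax5 varied together between libraries of a group. Each is the 250 bases before the RefSeq start in GRCm38.p6, 5′ to 3′ on the strand of the gene. The RefSeq starts differ from those of the GENCODE M21 annotation used for gene positions. There Cd22 starts at 30880342, so its window lies inside the annotated gene. Cd79a starts at 24897381, inside its window, and Pax5 at 44710487, downstream of its window. Capitals mark motif matches, searched on both strands: the octamer ATGCAAAT, the EBF palindrome (TCCC and GGGA with any 2 bases between) and the ETS core run GAGGAA. The windows are Cd79a at chr7:24897247-24897496 (plus strand), Pax5 at chr4:44710695-44710944 (minus strand) and Cd22 at chr7:30879029-30879278 (minus strand).
Cd79a: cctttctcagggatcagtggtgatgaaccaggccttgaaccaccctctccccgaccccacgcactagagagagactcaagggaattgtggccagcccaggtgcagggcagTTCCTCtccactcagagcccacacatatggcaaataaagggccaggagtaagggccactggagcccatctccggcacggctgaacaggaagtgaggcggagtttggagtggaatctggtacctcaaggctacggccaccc
Pax5: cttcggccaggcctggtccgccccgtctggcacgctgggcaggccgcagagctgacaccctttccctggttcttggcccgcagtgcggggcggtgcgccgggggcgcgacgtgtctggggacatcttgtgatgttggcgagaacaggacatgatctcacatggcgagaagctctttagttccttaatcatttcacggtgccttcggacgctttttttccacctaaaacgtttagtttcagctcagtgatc
Cd22: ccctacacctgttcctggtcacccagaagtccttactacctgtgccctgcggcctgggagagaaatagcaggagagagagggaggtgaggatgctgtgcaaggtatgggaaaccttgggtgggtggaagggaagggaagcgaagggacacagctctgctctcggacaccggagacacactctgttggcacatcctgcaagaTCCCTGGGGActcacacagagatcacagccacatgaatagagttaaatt
The Cd79a window held 1 ETS core run, read on the opposite strand, 140 bases before the RefSeq start. The Cd22 window held 1 EBF palindrome, 49 bases before the RefSeq start. The Pax5 window held no match to these letters. Among 32851 promoter windows of the same length, 23.3% held the ETS core run, 0.779% the EBF palindrome and 1.60% the octamer. RefSeq windows were on hand for 4 of the 9 members, the other being Jchain, and a match of letters is not a site of binding.

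Pax5 (chromosome 4, 44524757 to 44710487, minus strand, GRCm38) read 894, 1447, 739, 912 and 877 normalized counts in before-culture samples 1 to 5 and 533, 569, 760 and 756 in after-culture samples 1 to 4. Before-culture sample 2 was the highest, and the groups met only at the before-culture value of 739 and the after-culture values of 756 and 760. Pax5 fell 1.49-fold, from 974 ± 273 (SD, n = 5) to 654 ± 120 (SD, n = 4), with a log2 fold change of -0.55 (SE 0.172) and a limma adjusted p of 0.0114. The call held when any 1 library was left out, with limma adjusted p values of 0.00518 to 0.0447. On the annotation, 4 other genes overlap Pax5, and the strandedness of the counting is not given in the sources used here. The highest of these, Gm12462, reached 32.8 normalized counts.

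The 2 signalling chains of the receptor did not pass the test. Cd79a (chromosome 7, 24897381 to 24902197, plus strand) read 723, 1239, 627, 657 and 671 before and 627, 638, 761 and 823 after culture. Sample 2 before culture stood far above the other 4, and the remaining values of both groups lay in 1 range. The log2 fold change was -0.10 (95% interval -0.47 to 0.28, limma adjusted p = 0.641), and it was 0.08 without before-culture sample 2. For Cd79b (chromosome 11, 106311341 to 106314762, minus strand) the counts were 352, 592, 323, 438 and 362 before and 398, 409, 528 and 549 after. The same before-culture sample was again the highest, and the groups overlapped. The log2 fold change of Cd79b was 0.21 (95% interval -0.15 to 0.57, limma adjusted p = 0.284), and without before-culture sample 2 it was 0.35 and passed the test (limma adjusted p = 0.0417). In the annotation, 8.31% of the 50-base windows of the Cd79a transcript also occur in other genes, mostly Gm32220, and none of those of Cd79b do.

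The 2 heavy chain members lie next to each other on chromosome 12, minus strand (Ighm at 113418558 to 113422730, Ighd at 113406604 to 113416324), and mature B cells make both from 1 transcript by splicing. Ighm, the constant region of IgM, was the member with most reads: 5310, 7336, 5654, 8250 and 5728 normalized counts before and 3527, 4062, 4996 and 4786 after culture. All 4 after-culture samples lay under the lowest before-culture sample. Ighm fell 1.49-fold, from 6456 ± 1273 (SD, n = 5) to 4343 ± 675 (SD, n = 4), with a log2 fold change of -0.56 (SE 0.138) and a limma adjusted p of 0.00254. Ighd, the constant region of IgD, which marks mature naive B cells, read 908, 1354, 770, 1160 and 1022 before and 933, 1022, 1458 and 1474 after. The groups overlapped, with after-culture samples 3 and 4 above every before-culture sample. The log2 fold change of Ighd was 0.23 (95% interval -0.14 to 0.59, limma adjusted p = 0.258).

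Igkc, the constant region of the kappa light chain (chromosome 6, 70726435 to 70726966, plus strand), read 1697, 2471, 2037, 2282 and 1550 before and 987, 1603, 1257 and 1475 after culture. The groups overlapped by 1 value on each side, 1550 before and 1603 after. Igkc fell 1.51-fold, from 2008 ± 386 (SD, n = 5) to 1330 ± 270 (SD, n = 4), with a log2 fold change of -0.60 (SE 0.155) and a limma adjusted p of 0.00389. The call held when any 1 library was left out (limma adjusted p values of 0.00166 to 0.0162). Gm30211 overlaps Igkc on the same strand and reached 49.1 normalized counts at most.

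Both B cell surface proteins outside the receptor rose. Cd22 (chromosome 7, 30865402 to 30880342, minus strand) read 985, 1292, 845, 989 and 886 before and 1433, 1680, 1500 and 1702 after culture. Every after-culture sample was above every before-culture sample. Cd22 rose 1.58-fold, from 999 ± 175 (SD, n = 5) to 1579 ± 133 (SD, n = 4), with a log2 fold change of 0.67 (SE 0.114) and a limma adjusted p of 1.47e-04. The call held when any 1 library was left out (limma adjusted p values of 1.21e-05 to 9.54e-04). Ms4a1 (chromosome 19, 11249675 to 11266241, minus strand) read 244, 369, 217, 384 and 243 before and 321, 347, 549 and 569 after. After-culture samples 1 and 2 lay within the before-culture range, and samples 3 and 4 lay above it. Ms4a1 rose 1.53-fold, from 291 ± 78.7 (SD, n = 5) to 446 ± 130 (SD, n = 4), with a log2 fold change of 0.61 (SE 0.213) and a limma adjusted p of 0.0218. That call was lost in limma without before-culture sample 1 (adjusted p = 0.0506), before-culture sample 3 (0.0540), after-culture sample 3 (0.0664) or after-culture sample 4 (0.0835).

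Jchain (chromosome 5, 88519809 to 88527891, minus strand) read 170, 212, 238, 359 and 134 before and 133, 331, 284 and 191 after culture. The 2 groups covered almost the same range, and the spread within a group was wide. The log2 fold change was 0.07 (95% interval -0.55 to 0.69, limma adjusted p = 0.840).

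**Figure D2:**
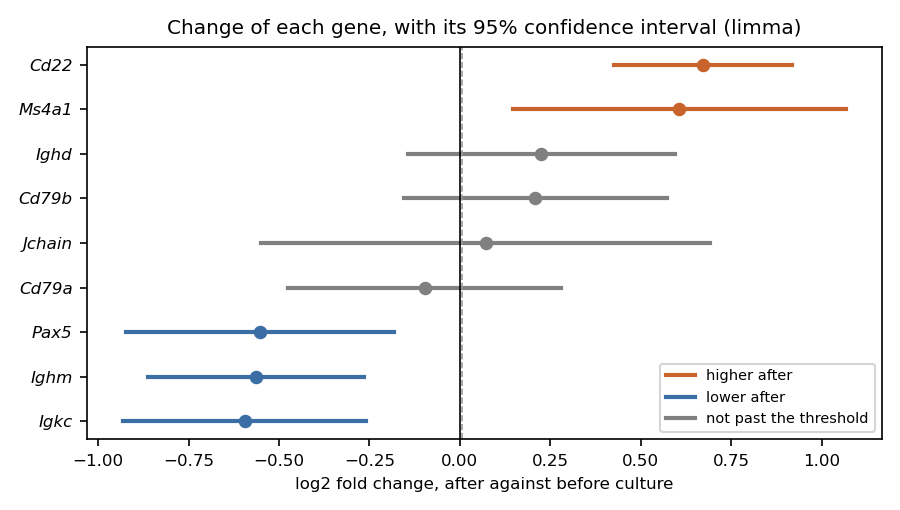
Log2 fold change after against before culture of each member, with its 95% interval from limma, with a dashed line at the median of all tested genes. The intervals of Cd22 and Ms4a1 lie above 0, those of Pax5, Ighm and Igkc lie below it, and those of the other 4 members include it.

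Levels were compared between genes per kilobase of annotated exon. Before culture, Igkc (3774 ± 726 normalized counts per kb, SD, n = 5) and Ighm (3423 ± 675) led and differed by less than their SD. Ighd (549 ± 119) and Cd79a (538 ± 176) followed and did not differ beyond their spread. Next came Cd79b (289 ± 75.7), Cd22 (198 ± 34.7), Pax5 (110 ± 30.8), Jchain (88.5 ± 34.1) and Ms4a1 (47.1 ± 12.7), of which Pax5 and Jchain differed by less than an SD. After culture, Igkc (2500 ± 507 per kb, SD, n = 4) and Ighm (2303 ± 358) still led, ahead of Ighd (643 ± 150) and Cd79a (489 ± 65.5). Cd79b (329 ± 54.7 per kb) and Cd22 (313 ± 26.4) then lay within their SD of each other, as did Pax5 (73.9 ± 13.6) and Ms4a1 (72.1 ± 21.1). Jchain (93.3 ± 35.5) differed from Pax5 and Ms4a1 by less than its own SD.

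Whether pairs of members changed by different amounts was asked with 7 log2 ratios, each tested by an exact two-sided permutation of the 9 samples, for which the smallest possible p is 0.0159. The ratio of Ighm to Ighd was 5.84, 5.42, 7.34, 7.11 and 5.60 before and 3.78, 3.97, 3.43 and 3.25 after culture. No after-culture sample reached the before-culture range, and the mean log2 ratio fell by 0.79 (exact permutation p = 0.0159, Benjamini-Hochberg adjusted over the 7 ratios 0.0556). The ratio of Cd22 to Cd79a was 1.36, 1.04, 1.35, 1.50 and 1.32 before and 2.28, 2.63, 1.97 and 2.07 after. It was higher in all 4 after-culture samples, by 0.77 on the log2 scale (exact permutation p = 0.0159, adjusted 0.0556). The log2 differences were 0.70 for Ms4a1 to Cd79a and 0.31 for Cd79b to Cd79a, each with an exact permutation p of 0.0476 (adjusted 0.0741). Jchain to Igkc differed by 0.67 and Igkc to Cd79a by -0.50, each with an exact permutation p of 0.0635 (adjusted 0.0741). Igkc to Ighm differed by -0.03 (exact permutation p = 0.857), with -0.16 to 0.060 when 1 library was left out. None of the 7 passed an adjusted 0.05 over all 9 samples. Without before-culture sample 4, several ratios shared an adjusted exact permutation p of 0.0400. These were Ighm to Ighd, Cd79b to Cd79a, Ms4a1 to Cd79a, Cd22 to Cd79a and Jchain to Igkc. They tied at the smallest p possible without that sample, which is higher than 0.0159, and the adjusted value reflects this tie.

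The members also varied between libraries of 1 group. Before culture, sample 2 was the highest for 6 of the 9 members and sample 4 for the other 3, and sample 3 was the lowest for 6. After culture, sample 1 was the lowest for all 9. After subtracting each group's mean, the Pearson correlation over the 9 libraries was 0.96 for Cd79b with Pax5, 0.95 for Cd79a with Pax5, 0.95 for Ms4a1 with Ighd and 0.94 for Ms4a1 with Ighm. Jchain had values of -0.03 with Cd79a and 0.10 with Pax5, and of 0.64 with Ighm and 0.76 with Igkc. Genes read in 1 library share its depth, preparation and scaling, and no p is given for these correlations.

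**Figure D3:**
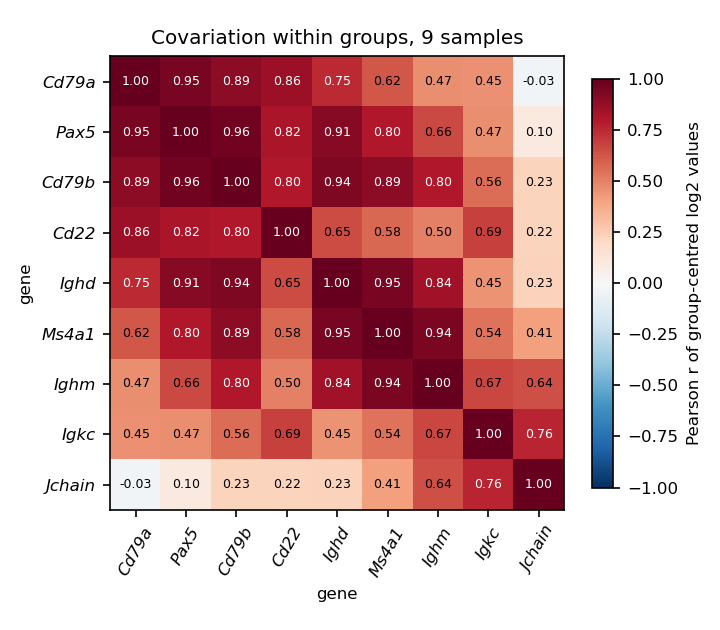
Pearson correlation between members over the 9 libraries after each group's mean log2 value was subtracted, coloured from -1 to 1. Values among Cd79a, Cd79b, Pax5, Ms4a1 and Ighd run from 0.62 to 0.96, and Jchain is near 0 with Cd79a and Pax5.

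Among all 18202 tested genes, those most like each member by the same group-centred correlation over 9 libraries included other B cell genes for some members and not for others. Fcmr, the receptor for IgM, was the gene most like Cd79a (0.98). For Cd79b the leading genes were Cr2, complement receptor 2 (0.98), and Bank1, a B cell scaffold protein (0.98). Among the 5 genes most like Pax5 were Cacna1i (0.97), Cd79b (0.96), Cd79a (0.95) and the lambda constant region Iglc3 (0.93). The gene most like each of the others was Rnf138 for Ms4a1 (0.99), Ipp for Cd22 (0.98), Pnpla8 for Ighm (0.97), Carf for Ighd (0.98), Manea for Igkc (0.99) and Tmem87b for Jchain (0.98). These are the highest of 18202 values over 9 libraries and are given as a description. Before-culture sample 2, the highest library for Cd79a and Cd79b, was also the highest for Fcmr (559 normalized counts), Cr2 (277) and Bank1 (822). The weight of that sample in these correlations was not tested.

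The other constant regions show which antibody classes were present. Igha, the IgA heavy chain, had more reads than any IgG class in every library, at 1248, 1162, 1070, 1211 and 714 normalized counts before and 451, 851, 872 and 493 after culture. The groups overlapped between 714 and 872. Igha fell, with a log2 fold change of -0.73 (limma adjusted p = 0.00745). Ighg1, the IgG1 heavy chain, read 40.0, 35.9, 14.6, 24.3 and 53.7 before and 9.72, 5.31, 2.73 and 3.80 after. Every after-culture sample was under every before-culture sample, with a log2 fold change of -2.43 (limma adjusted p = 1.63e-04), and the after-culture values rest on 3 to 11 reads. For the IgG2c heavy chain, Ighg2c, single libraries set the picture: 102, 73.0, 580, 146 and 118 before, and 0, 237, 0 and 140 after. After-culture samples 1 and 3 held no read, which allows up to 3 reads, while sample 2 lay above 4 of the 5 before-culture samples. Its limma adjusted p of 0.0489 (log2 fold change -3.48) was lost in 7 of the 9 fits that left out 1 library, all but those without after-culture sample 2 or 4, and ran from 0.00507 to 0.182. Ighg2b, Ighg3 and the lambda light chains Iglc1, Iglc2 and Iglc3 did not pass the test, and Ighe and Iglc4 were too low to be tested. Without after-culture sample 2, limma called Ighg2b lower (log2 fold change -1.92, adjusted p = 0.0254), Ighg3 lower (-1.33, adjusted p = 0.0335) and Iglc2 higher (0.56, adjusted p = 0.0157). Without before-culture sample 2, Iglc3 was called higher (0.57, limma adjusted p = 0.0416). In all, 3 of the 8 constant regions tested were lower and none was higher, with a median log2 fold change of -0.50. Of all tested genes, 34.6% were lower and 34.2% higher.

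As a share of heavy chain constant reads, Ighd made up 11.9, 13.4, 9.31, 10.6 and 13.3% before and 18.9, 15.6, 19.8 and 21.1% after culture. All after-culture shares were above all before-culture shares. Ighm made up 68.4 to 75.6% before and 62.1 to 71.5% after, and Igha 9.28 to 16.3% before and 7.06 to 13.0% after, so these ranges overlapped. Of light chain constant reads, kappa took 88.4, 85.9, 90.3, 87.5 and 85.9% before and 78.1, 83.7, 72.3 and 78.4% after. The kappa shares of the groups did not overlap either. These shares were picked out after their values were seen and were not tested. Constant and variable immunoglobulin genes together took 0.0424 to 0.0679% of named reads before and 0.0314 to 0.0479% after.

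**Figure D4:**
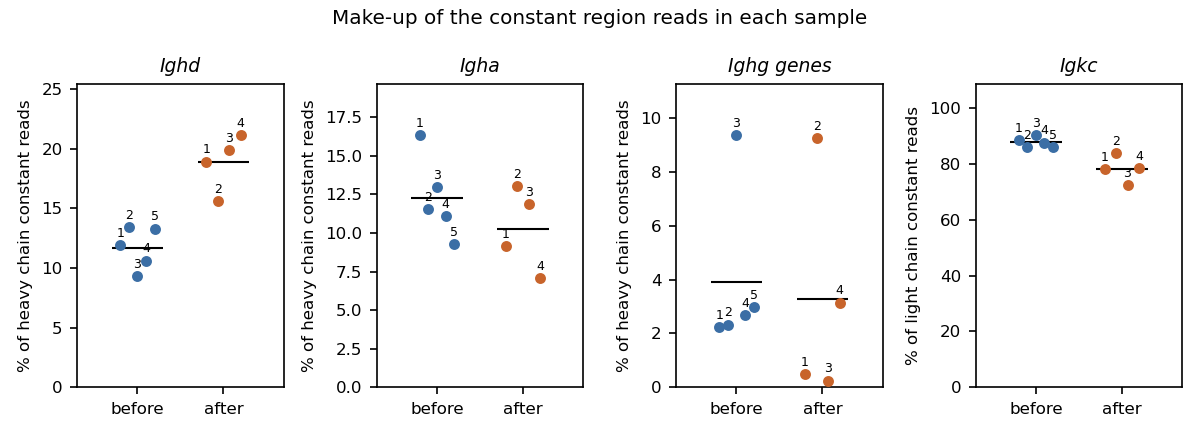
Share of heavy chain constant region reads (percent) taken by Ighd, Igha and the Ighg genes, and share of light chain constant reads taken by Igkc, in each library, with the sample number at each point and a bar at the group mean. The share of Ighd is 9.31 to 13.4% before and 15.6 to 21.1% after culture, and the Ighg genes reach 9.36% in before-culture sample 3 and 9.25% in after-culture sample 2.

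Variable segments, which each B cell clone joins once to build its receptor, were read at low depth. The table has 346 rows for them, 239 had at least 1 read, and 67 passed the filter on low values. Of these 67, 1 was higher and 10 lower after culture, and 56 did not pass the test, with a median log2 fold change of -0.39. The shares among all tested genes were 34.2% higher and 34.6% lower. The single segment that was higher was Iglv3, named after its values were seen, with a log2 fold change of 0.70 and a limma adjusted p of 0.0343. That call was lost without before-culture sample 1, 3, 4 or 5 or after-culture sample 1 or 4, with limma adjusted p values of 0.0518 to 0.133. Ighv9-3, the heavy chain segment with most reads before culture, stood at 30.4 ± 13.6 (SD, n = 5) before and 14.8 ± 10.2 (SD, n = 4) after, with a log2 fold change of -1.09 and a limma adjusted p of 0.0360. Its call was lost without before-culture sample 1, 2 or 4 or after-culture sample 1, 2 or 4, with limma adjusted p values of 0.0505 to 0.109. Segments share sequence, 23.2% of the 50-base windows in the case of Ighv9-3, so reads could move between them.

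Some segments led their family in 1 library and others in more. Igkv10-96 led the kappa segments in before-culture samples 4 and 5 and after-culture samples 1 and 4. Igkv17-127, the kappa segment with most reads in both groups, read 23.8, 45.8, 212, 50.2 and 17.9 normalized counts before and 36.2, 348, 30.9 and 43.3 after culture. It took 14.3% of kappa segment reads in before-culture sample 3 and 22.6% in after-culture sample 2, and both of those libraries carry the number 3 in their names. In this segment 50.6% of windows are shared with other genes, mostly Igkv17-121. Igkv4-90, which shares no window with another gene, read 5.71, 4.95, 0, 44.4 and 0 before and 1.77, 1.52, 141 and 26.6 after. Its highest value in each group fell in the library with number 4 in its name. Ighv14-4, the heavy chain segment with most reads after culture, owed this to 1 library: it read 101 in after-culture sample 2 and 2.65, 7.28 and 14.4 in the other 3. It did not pass the test over all samples, and without after-culture sample 2 it was called lower (log2 fold change -1.59, limma adjusted p = 0.00773). Iglv1, the leading lambda segment, read 25.7 to 127 before and 51.2 to 165 after, and did not pass the test. Igkv4-90 and Igkv10-96 were named after their values were seen.

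The number of segments read and their evenness overlapped between groups. Libraries held 137 to 180 segments with reads before culture and 154 to 184 after. Thinned to 882 segment reads, the depth of the shallowest library, they held an expected 137 to 147 before and 121 to 142 after. The effective number of segments (the inverse of the summed squared shares) was 48.5 to 77.1 before and 27.9 to 56.7 after, and its lowest value fell in after-culture sample 2, the library led by Igkv17-127.

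**Figure D5:**
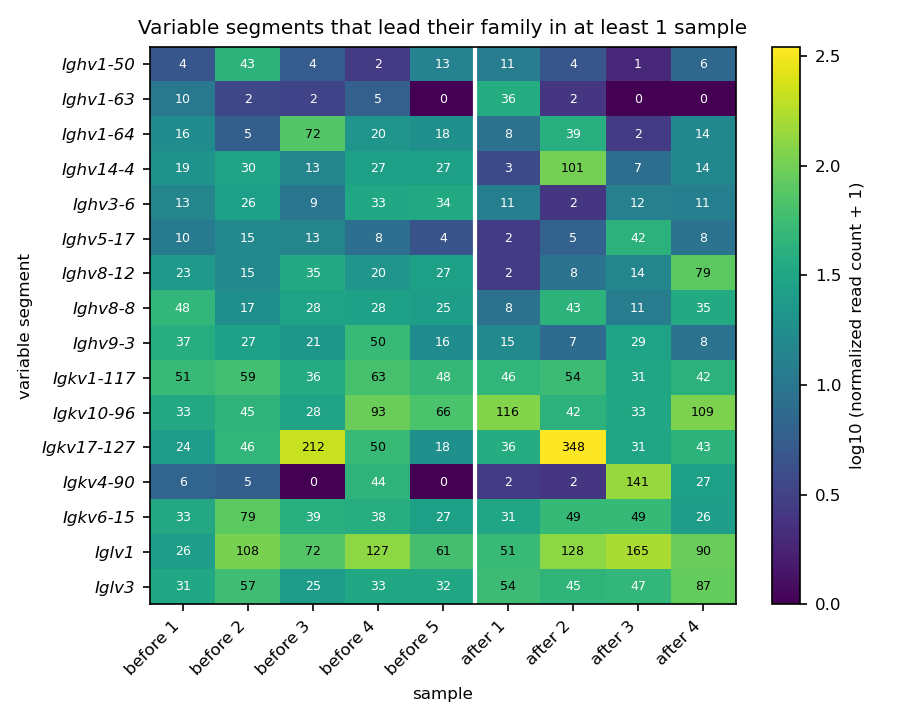
Normalized read counts of the variable segments that led their family in at least 1 library, one row per segment and one column per sample, coloured by log10 of the count plus 1 with the count printed in each cell. Igkv17-127 is brightest in before-culture sample 3 (212) and after-culture sample 2 (348), and Igkv4-90 in before-culture sample 4 (44.4) and after-culture sample 3 (141).

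Genes that act with the members were taken from 10 lists, and over 115 such genes outside the members 104 were tested, of which 17 were higher, 54 lower and 33 not past the test (median log2 fold change -0.42). Beside these stand the 34.2% higher and 34.6% lower among all genes. Many of them, such as Irf8, Inpp5d and Pirb, are also expressed by dendritic or myeloid cells, and the cell that held a transcript was not tested. Genes named from these lists beyond the smallest adjusted p values of each were picked after their values were seen.

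Of 19 antigen receptor signalling genes, 4 were higher (Blnk, Dapp1, Vav2, Prkcb), 8 lower and 7 not past the test, with a median log2 fold change of -0.01. Rasgrp3, a Ras activator, fell from 1520 ± 231 (SD, n = 5) to 373 ± 86.9 (SD, n = 4), a log2 fold change of -2.04 (limma adjusted p = 5.05e-08). Cd81, a tetraspanin of the co-receptor complex (log2 fold change -1.31), and Pik3ap1, an adaptor for PI3K (-1.15), also fell. Syk, the kinase that docks on CD79A and CD79B and the most abundant gene of the list, did not pass the test (log2 fold change 0.08, limma adjusted p = 0.547).

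Of 12 genes that restrain the receptor, 2 were higher (Pirb, St6gal1), 8 lower and 2 not past the test (Ptpn6, Cmah), with a median of -0.71. Inpp5d, the phosphatase SHIP1 of the Cd22 and Fcgr2b pathways, fell from 16340 ± 736 (SD, n = 5) to 7436 ± 1099 (SD, n = 4), a log2 fold change of -1.15 (limma adjusted p = 1.83e-07). Csk, a kinase that holds Src kinases off (log2 fold change -1.05), and the phosphatase gene Ptpn22 (-0.96) fell. The inhibitory receptor gene Pirb rose (log2 fold change 1.28). St6gal1, the gene of the enzyme that makes the ligand of CD22, rose, with a log2 fold change of 0.25 (limma adjusted p = 0.0221). Its limma call was lost without before-culture sample 1 (adjusted p = 0.0598) or 3 (0.0537) or after-culture sample 4 (0.0712), which leaves 1 gene of the list higher, and the number higher was 1 to 3 over all settings.

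Of 17 other B cell genes, 2 were higher (Fcrl5, Ccr6), 7 lower and 8 not past the test, with a median of -0.21. H2-Oa, which tunes antigen loading on class II molecules, fell from 851 ± 204 (SD, n = 5) to 102 ± 29.5 (SD, n = 4), a log2 fold change of -3.05 (limma adjusted p = 9.78e-09). Its partner H2-Ob (log2 fold change -1.92), the Fc receptor-like gene Fcrla (-1.68) and Cd24a (-1.48) also fell. Fcrl5, another Fc receptor-like gene, rose, with a log2 fold change of 2.84.

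Of 17 transcription factors of B cells, 1 was higher (Spib, log2 fold change 0.61), 12 lower and 4 not past the test (Ebf1, Bach2, Ikzf3, Foxo1), with a median of -0.40. Mef2c (log2 fold change -1.55), Bcl11a (-1.34), Irf8 (-1.12) and Irf4 (-0.98) fell. Ebf1, which acts with Pax5 in B cell commitment, had a log2 fold change of 0.09 (limma adjusted p = 0.730).

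Of 17 plasma cell genes, 16 were tested: 4 were higher (Edem1, Sec11c, Sdc1, Prdm1), 8 lower and 4 not past the test (Mzb1, Fkbp11, Slamf7, Pdia4), with a median of -0.28. Tent5c, a poly(A) polymerase that stabilises immunoglobulin transcripts (log2 fold change -2.39), and Derl3, a factor of protein disposal in the endoplasmic reticulum (-1.64), fell. Edem1 (log2 fold change 0.72) and Sec11c (0.63) rose. Mzb1, which assembles IgM, was near the low end at 28.4 ± 4.66 (SD, n = 5) and 27.3 ± 10.8 (SD, n = 4), and Tnfrsf17, the receptor BCMA, was too low to be tested.

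Among germinal centre genes, S1pr2, a receptor that holds cells in the follicle, rose (log2 fold change 1.36), and Gcsam (-1.43) and the uracil glycosylase gene Ung (-1.66) fell. Of 7 genes of B cell precursors, 5 had a row and only Vpreb3 was tested. Among those too low to be tested, Dntt read 1.79 to 5.71 before and 11.4 to 17.5 after culture. Rag1 read 0 to 4.18 before and 7.58 to 10.6 after. Igll1 and Rag2 had groups that overlapped. Vpreb3 rose, with a log2 fold change of 0.55 (limma adjusted p = 0.0375). That call was lost without before-culture sample 1, 3 or 4 or after-culture sample 2, 3 or 4 (limma adjusted p values of 0.0506 to 0.0931).

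Of 8 ligands that act on B cells, 7 were tested, 4 were lower, none was higher and 3 did not pass the test (Tnfsf13, Il4, Il5). Tnfsf13b, the survival factor BAFF, fell from 363 ± 55.9 (SD, n = 5) to 53.5 ± 3.83 (SD, n = 4), a log2 fold change of -2.73 (limma adjusted p = 1.30e-09). The chemokine Cxcl13 (log2 fold change -2.33), Il6 (-0.68) and Cd40lg (-0.67) also fell. The limma call of Cd40lg was lost under quantile scaling (adjusted p = 0.0614). Of the receptors that carry immunoglobulin, Fcgrt, which recycles IgG (log2 fold change -2.96), and Pigr, which carries polymeric IgA and IgM (-2.25), fell. Trim21, which binds antibody inside cells, rose (1.15).

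The label of the members was checked against markers. All 14 B cell markers passed the filter on low values. They include 5 of the members, and all 14 also stand among the members or the lists above. Of the 14, 1 was higher, 4 were lower and 9 did not pass the test (median log2 fold change -0.05). Among all tested genes, 34.2% were higher and 34.6% lower. The summed level of the 14 was 5851 to 10241 before and 5445 to 7679 after culture, highest in before-culture sample 2. Besides Pax5, the lower ones were Fcrla, Fcer2a, the low-affinity IgE receptor (log2 fold change -1.05), and Pou2af1, a coactivator of octamer factors (-0.40, limma adjusted p = 0.0199). The limma call of Pou2af1 was lost without after-culture sample 1 (adjusted p = 0.0528) and under upper quartile and quantile scaling (adjusted p up to 0.0757).

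The marker lists of other cells were read in the same fit, beside the same 34.2% higher and 34.6% lower among all tested genes. Of 11 markers of type 1 conventional dendritic cells, 8 were lower and 3 higher, with a median of -1.88, and their summed level was 136116 to 165290 before and 42819 to 45698 after. All 7 neutrophil markers tested and all 6 endothelial markers were lower, with medians of -4.28 and -3.85. Neutrophil sums ran from 14298 to 25015 before and 932 to 1902 after, and endothelial sums from 21707 to 30923 before and 2722 to 3551 after. Of 10 T cell markers, 1 was higher, 3 lower and 6 not past the test (median -0.05), with sums of 9585 to 10761 before and 8321 to 10751 after. Plasma cell markers summed to 9189 to 10760 before and 7261 to 9685 after, with 2 of 8 higher and 4 lower (median -0.30). Plasmacytoid dendritic cell markers, with 1 of 10 higher and 5 lower (median -0.66), summed to 9796 to 11192 before and 6718 to 9031 after, and macrophage markers, with 1 of 8 higher and 5 lower (median -0.82), to 34370 to 52724 before and 21026 to 33799 after. The part of these other cells in the members' values was not tested.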

How the data were processed

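RNA of 9 samples was sequenced, 5 before and 4 after culture. The authors' deposited values are normalized counts, a signal on a linear scale with 1 row per gene, per the file header. DESeq2 and the GRCm38 build are named in the submitters' processing notes. The aligner, the counting tool and its strandedness are not given in the sources used here. In every column 100% of the values were whole multiples of 1 read (tolerance 0.01 read), so reads were recovered. Rows without a symbol (3782 of 49317) held 3.87 to 10.9% of reads and were left out.

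Values were set to log2 after adding 1. Genes averaging at least 10 were fitted in R 4.3.3 by limma 3.58.1 with a mean-variance trend and no covariate. Tests were two-sided with Benjamini-Hochberg adjustment over every gene fitted. The added 1 tends to make the log2 fold changes of low genes smaller, yet libraries without reads can still make such a change large. For Ighg2c, limma gave -3.48 and edgeR -1.11. Ratios of members were compared by exact permutation in Python 3.11.15. The fits were run on simulated data in which few genes changed, as many up as down. That setting differs from these data and does not test their scaling. Alternatives were other pseudocounts, filters and scalings, edgeR 4.0.16 and DESeq2 1.42.0 on recovered reads, replicate blocks and each library left out. Positions, exon lengths and shared windows came from GENCODE M21.

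Members and lists were chosen with earlier results of these data known. The text names all 9 members, up to 4 genes per list with the smallest adjusted p past the threshold and the list's most abundant gene, the segment with most reads per family and group, and genes most like each member. Not every such gene is printed. Some genes of the lists are counted there and not reported here by name.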

Additional observations from a re-analysis of the deposited data

Results flagged for a closer look

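A sample was set apart where its gap to the nearest other sample of its group took up most of the group's range (Dixon's criterion at 95%). Chance alone sets apart about 1 in 20 groups, and here 5 of the 42 groups examined had such a sample.

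Before-culture sample 2 read 1239 normalized counts of Cd79a, while the other 4 lay between 627 and 723. The same sample read 1447 normalized counts of Pax5 against 739 to 912 in the others. Before-culture sample 3 read 580 normalized counts of Ighg2c against 73.0 to 146, and the Ighg classes together took 9.36% of its heavy chain constant reads against 2.23 to 2.98% in the others. After-culture sample 2, whose library name carries the number 3 as that of before-culture sample 3 does, read 113 normalized counts of Ighg3 against 3.53 to 8.19 in the other 3.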

How the results depend on the processing

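On recovered reads edgeR called 12562 and DESeq2 12663 genes, beside 12524 by limma. The number of members lower after culture was 3 in every setting, and the calls of Cd22, Ighm, Igkc and Pax5 held in each. Upper quartile scaling moved the median log2 change of all genes to 0.12 and turned Cd79a to 0.012. Bank1 turned to 0.020 under TMM, 0.099 under upper quartile and 0.071 under quantile scaling, Mzb1 to 0.024 under quantile scaling, and edgeR gave 0.91 for Ighg3 and 0.45 for Ighv14-4. Ighg2c was -1.11 in edgeR (adjusted p = 0.303) and lost its call in 9 of 11 alternatives. Of list counts, upper quartile scaling made 2 transcription factors higher. A minimum mean of 50 left 1 constant region and 1 immunoglobulin receptor lower and 0 precursor genes higher, and no filter made 2 of the last higher. Quantile scaling made 1 constant region higher.

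Samples with the same title number correlated at -0.21 to 0.081 and those with the same library number at 0.045 to 0.35 (group-centred, all tested genes), so neither number was taken to pair the samples. As a hint from the data only, each of the 4 after-culture samples correlated best with the before-culture sample of its own library number, as did 3 of 4 in the other direction. With the library number as a replicate block, which leaves before-culture sample 2 without a partner, Cd79a was 0.081, Cd79b 0.35, Ighd 0.33 and Bank1 0.15, and 4 members were higher, Cd79b (limma adjusted p = 0.00803) and Ighd (0.00534) among them. That block made 2 constant regions higher. With the title number as a block, Jchain was -0.090 and 1 gene that restrains the receptor was higher.

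Leaving out 1 library at a time gave log2 changes of -0.17 to 0.081 for Cd79a, 0.13 to 0.35 for Cd79b, 0.47 to 0.75 for Ms4a1 and -0.12 to 0.31 for Jchain, with 1 to 3 members higher. It gave -1.33 to 0.22 for Ighg3, -0.012 to 0.32 for Cr2, -0.11 to 0.15 for Bank1, -0.076 to 0.29 for Ebf1, -0.35 to 0.040 for Mzb1, -1.59 to 0.013 for Ighv14-4 and -0.34 to 1.01 for Igkv17-127. The log2 ratios ran from -0.84 to -0.73 for Ighm to Ighd, -0.16 to 0.060 for Igkc to Ighm, 0.27 to 0.39 for Cd79b to Cd79a, 0.62 to 0.86 for Ms4a1 to Cd79a, 0.69 to 0.83 for Cd22 to Cd79a and 0.53 to 0.81 for Jchain to Igkc. The cause of these shifts was not tested.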

Other observations

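The variable segments gave each library a profile of its own. Over 106 segments, the Pearson correlation of log2 levels between an after-culture and a before-culture library with the same number in their names was 0.39 for number 1, 0.54 for number 3, 0.55 for number 4 and 0.45 for number 5. The other 16 pairs of libraries ran from 0.24 to 0.48. For 3 of the 4 after-culture libraries the best match was the before-culture library of their own number, and the library numbered 5 matched before-culture sample 1 best (0.48). Ighv1-64 followed the same numbers, with 71.8 normalized counts in before-culture sample 3 and 39.4 in after-culture sample 2, both numbered 3. It read 1.82 to 20.1 in the other libraries. Ighv14-4 did not follow them: it read 101 in after-culture sample 2 and 13.5, its lowest before-culture value, in before-culture sample 3. Nor did Igkv10-96, with 116 in after-culture sample 1 and 33.3 in before-culture sample 1, against 92.9 in before-culture sample 4. The labels do not say what the numbers stand for, these values were looked at after other results were seen, and no p is given for them.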
